A study of Mus musculus with 6 samples.

Results

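The chemokine system of the liver is described here by 52 genes of the 19938 measured, 34 chemokines and 18 chemokine receptors. A gene was taken when a probe set carried a single symbol of the families Ccl, Cxcl, Ccr or Cxcr with a number, or was Cx3cl1, Cx3cr1, Xcl1 or Xcr1. The 52 genes had 57 probe sets, and a gene was represented by its brightest one, judged by the mean of the 6 arrays. The rule itself uses gene names and brightness, and the family was chosen with earlier results of these data known. Livers of C57BL/6 mice, an inbred laboratory strain, were compared after 2 days of free access to a regular diet (RD) or a high fat diet (HFD), with 3 biological replicates and 3 arrays of total RNA for each diet. Both diets share an unexplained tag, NI, in the sample titles, and any treatment it stands for is unknown here. Age, sex and the composition of the diets were not used here.

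Chemokines are small secreted proteins that guide leukocytes along concentration gradients, and they are named for the spacing of their leading cysteines as CC, CXC, CX3C or XC. Their receptors span the membrane and signal through inhibitory G proteins. In the liver, Kupffer cells (the resident macrophages), sinusoidal endothelial cells, stellate cells and hepatocytes can all secrete chemokines, and CCL2 with its receptor CCR2 is known for the entry of monocytes in fatty liver. CXCL9 and CXCL10 are classic products of interferon gamma and call CXCR3-bearing T and NK cells.

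Values are log2 signals of the arrays, so a difference of 1 is a doubling, and all differences are HFD minus RD. The array medians lay between 7.06 and 7.11. Each gene was tested with limma across all 19938 genes, and a gene was called at a Benjamini-Hochberg adjusted p under 0.05. Of the 52 genes 39 had a mean below 7.54, the median of all genes. Without detection calls it is unknown which of these values lie at background, where a fold is understated. The 8 hepatocyte markers measured had a mean log2 signal of 13.88 to 13.91 in every array, and they include albumin and transthyretin.

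After 2 days of HFD, 2 chemokines rose and no gene of the family fell. The risers were Ccl6 and Ccl3, which were 1.87-fold and 2.46-fold higher. The largest difference was that of Cxcl9, at 2.55-fold, followed among the uncalled genes by Cxcl10 at 2.13-fold and Ccl2 at 1.71-fold, and none of these passed. No receptor passed. The 2 calls are 3.85% of the family, against 3.11% of all genes called higher, and the 0 calls lower stand against 2.24% of all genes (5.35% in either direction). The share of higher calls was therefore near that of any genes. Before adjustment 12 of the 52 genes (23.1%) had a p under 0.05, against 19.7% of all genes.

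The diets did not overlap for 16 genes (30.8%), against 25.7% of all genes. The HFD values lay entirely above the RD values for 12 genes (23.1%), against 14.0% of all genes, and entirely below for 4 (7.69%), against 11.7%. The median difference was 0.064 over the 52 genes and -0.003 over all genes. Of the 52 differences 31 were positive (59.6%, against 49.2% of all genes). The median over the 52 genes was 0.10 without RD replicate 3 and 0.29 among the 13 genes brighter than the median of all genes. The chemokines had a median of 0.11, which was 0.06 without RD replicate 1. The receptors had a median of 0.05, which lay between -0.01 (without HFD replicate 1) and 0.07 when an array was omitted.

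**Figure D1:**
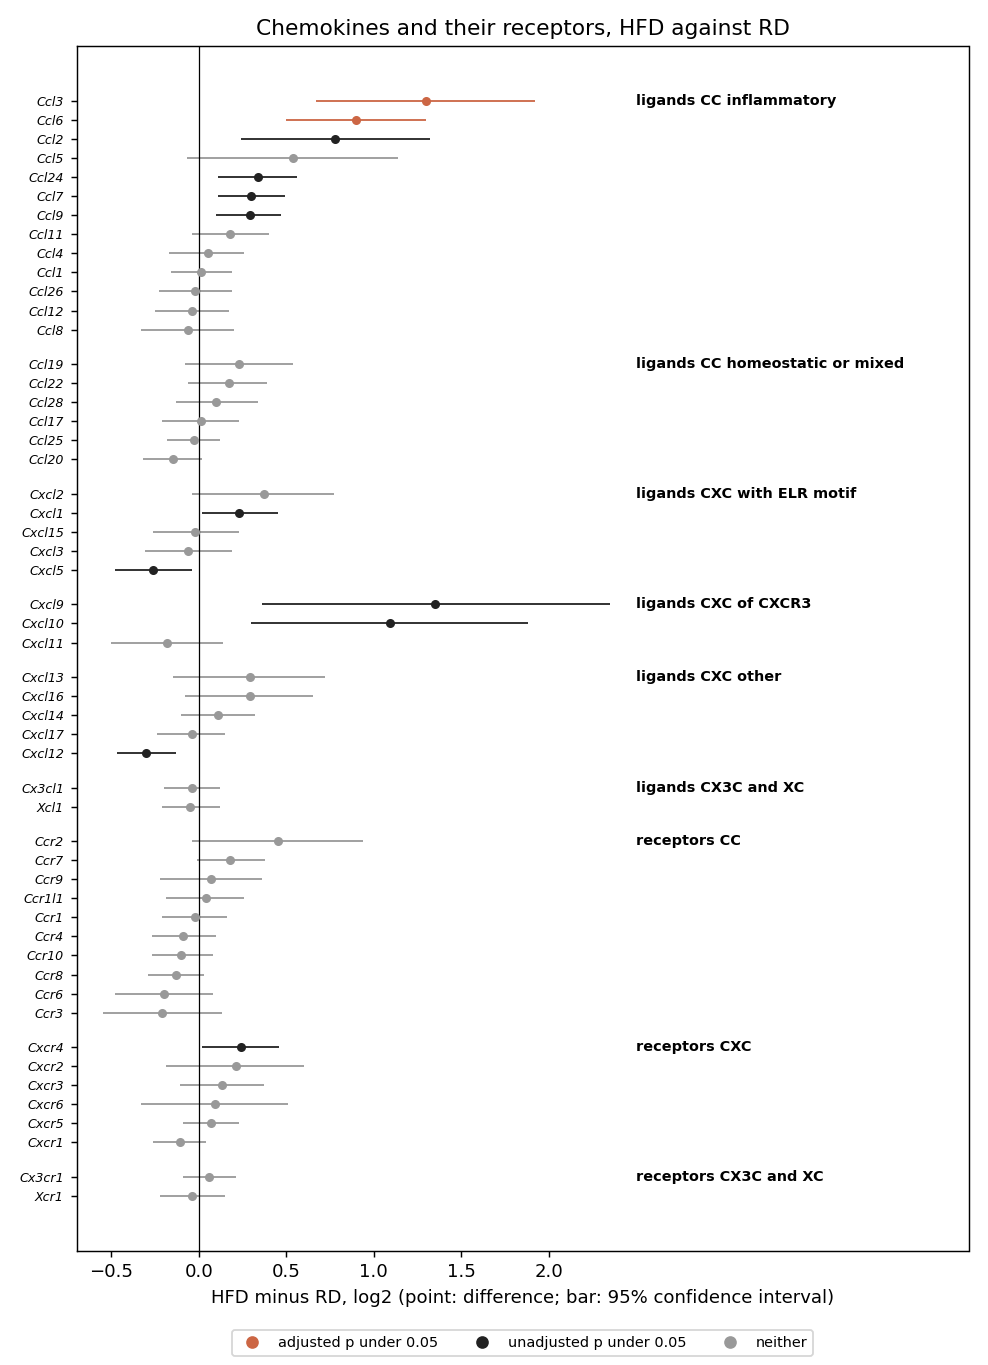
Difference between HFD and RD for each of the 52 genes on the log2 scale, grouped by role; points are limma differences and bars their 95% confidence intervals. Ccl3 and Ccl6 are the only genes with an adjusted p under 0.05, and Cxcl9 has the largest difference and the widest interval, from 0.36 to 2.35.

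The 13 CC chemokines of inflammation held both calls, where 3.11% of all genes were called higher. Differences were positive for 10 of the 13 (76.9%, against 49.2% of all genes), with a median of 0.29. HFD values lay entirely above RD for 7 of the 13, against 14.0% of all genes. Ccl6 (probe set 10389222), a chemokine of myeloid cells that is found in rodents and acts through CCR1, had log2 signals of 8.29, 8.93 and 8.67 in RD replicates 1 to 3 and of 9.74, 9.25 and 9.61 in HFD replicates 1 to 3. The diets did not overlap, and the gap between the highest RD and the lowest HFD array was 0.32. The difference was 0.90 ± 0.17 (SE, n = 3 each; limma adjusted p = 0.0255). It ranged from 0.73 to 1.05 when 1 array was left out, and the call held without RD replicate 2 or HFD replicate 2 (adjusted p = 0.0294 and 0.023) and was lost without each of the other arrays (limma adjusted p up to 0.0764).

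Ccl3 (probe set 10389231), also called MIP-1 alpha, is made by activated macrophages and likewise binds CCR1. Its log2 signals were 6.65, 6.48 and 6.86 in RD and 8.51, 8.12 and 7.26 in HFD. All HFD arrays were above all RD arrays, and HFD replicate 3 stood 0.40 above the highest RD array while the other HFD arrays stood further up. The difference was 1.30 ± 0.27 (limma adjusted p = 0.033). It was 1.65 without HFD replicate 3, the one array whose omission kept the call (limma adjusted p = 0.00427), and 1.03 to 1.40 without any other array (adjusted p up to 0.119). Neither Ccl3 nor Ccl6 passed with every row of the table tested (limma adjusted p = 0.119 and 0.1). The genomic neighbour of Ccl3, Ccl4, known as MIP-1 beta and often released with it, had 6.56, 6.62 and 6.89 in RD and 6.68, 6.76 and 6.77 in HFD. The Ccl4 arrays overlapped, and the 95% confidence interval of the difference ran from -0.17 to 0.26.

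Both risers lie on mouse chromosome 11 in a run of 5 chemokine genes with no other protein-coding gene between them, ordered Ccl5, Ccl9, Ccl6, Ccl3 and Ccl4 in RefSeq (GRCm38.p6). The differences along that run were 0.54, 0.29, 0.90, 1.30 and 0.05. Their promoter windows are shown because these are the genes that passed. Each window holds 250 bases before the RefSeq start of the gene to 50 after it, 5′ to 3′ on the gene's strand, and any capitals mark motif matches. The Ccl6 window is chr11:83593038-83593337 and that of Ccl3 is chr11:83649329-83649628, both on the minus strand of GRCm38.p6.
Ccl6: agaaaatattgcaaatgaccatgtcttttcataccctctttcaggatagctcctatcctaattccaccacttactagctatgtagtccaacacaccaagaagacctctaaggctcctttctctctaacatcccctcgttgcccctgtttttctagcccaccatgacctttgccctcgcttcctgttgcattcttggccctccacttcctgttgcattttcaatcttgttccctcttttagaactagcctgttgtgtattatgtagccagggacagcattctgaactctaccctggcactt
Ccl3: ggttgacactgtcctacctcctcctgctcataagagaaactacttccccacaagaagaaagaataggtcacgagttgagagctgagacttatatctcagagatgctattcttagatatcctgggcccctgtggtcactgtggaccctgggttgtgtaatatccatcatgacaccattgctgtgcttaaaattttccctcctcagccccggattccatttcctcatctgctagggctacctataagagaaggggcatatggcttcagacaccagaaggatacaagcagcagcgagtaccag
Neither window held a match to the 5 motifs searched: the NF-kB motif, the interferon-stimulated response element, the gamma-activated site TTCNNNGAA, the AP-1 motif TGANTCA, each on both strands, and the TATA box TATAAA on the gene's strand. This says only that those letters are not in these 300 bases.

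Of the other genes in that run, Ccl9 (MIP-1 gamma), another CCR1 ligand, was steady within HFD. Its log2 signals were 10.95, 11.12 and 11.22 in RD and 11.37, 11.36 and 11.43 in HFD. The diets did not overlap, yet the difference of 0.29 ± 0.08 missed the threshold (limma adjusted p = 0.087). With an intensity trend and a robust prior it passed (limma adjusted p = 0.0387), as it did among the brighter genes only (adjusted p = 0.0432). Ccl5, known as RANTES and made largely by T and NK cells, had 8.29, 8.30 and 8.35 in RD and 9.58, 8.37 and 8.60 in HFD. HFD replicate 1 stood far above the others, HFD replicate 2 stood 0.02 above the highest RD array, and the difference of 0.54 ± 0.26 (limma adjusted p = 0.314) was 0.17 without HFD replicate 1.

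The monocyte attractant Ccl2, also called MCP-1, was likewise highest in HFD replicate 1. It had log2 signals of 7.07, 7.01 and 6.87 in RD and of 8.38, 7.61 and 7.29 in HFD. The diets did not overlap, and the HFD arrays spanned a wide range, with an SD of 0.56 against 0.10 in RD. The difference was 0.78 ± 0.24 and did not pass (limma adjusted p = 0.108), and without HFD replicate 1 it was 0.47 (adjusted p = 0.0859). Ccl7, which shares CCR2 with Ccl2 and is its neighbour, had 6.78, 6.84 and 6.98 in RD and 7.28, 7.11 and 7.11 in HFD, without overlap (0.30 ± 0.08, limma adjusted p = 0.0806). The eosinophil attractant Ccl24, or eotaxin-2, had 7.45, 7.62 and 7.58 in RD and 8.08, 7.76 and 7.82 in HFD (0.34 ± 0.10, limma adjusted p = 0.0938).

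The other inflammatory CC genes, Ccl1, Ccl4, Ccl8, Ccl11, Ccl12 and Ccl26, had differences between -0.06 and 0.18, and the diets overlapped in each. Ccl11, or eotaxin, was the highest of these at 0.18, with a 95% confidence interval from -0.04 to 0.40. Ccl2, Ccl7, Ccl11, Ccl12, Ccl8 and Ccl1 form a second run of 6 genes without another protein-coding gene between them, and their differences in that order were 0.78, 0.30, 0.18, -0.04, -0.06 and 0.01.

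**Figure D2:**
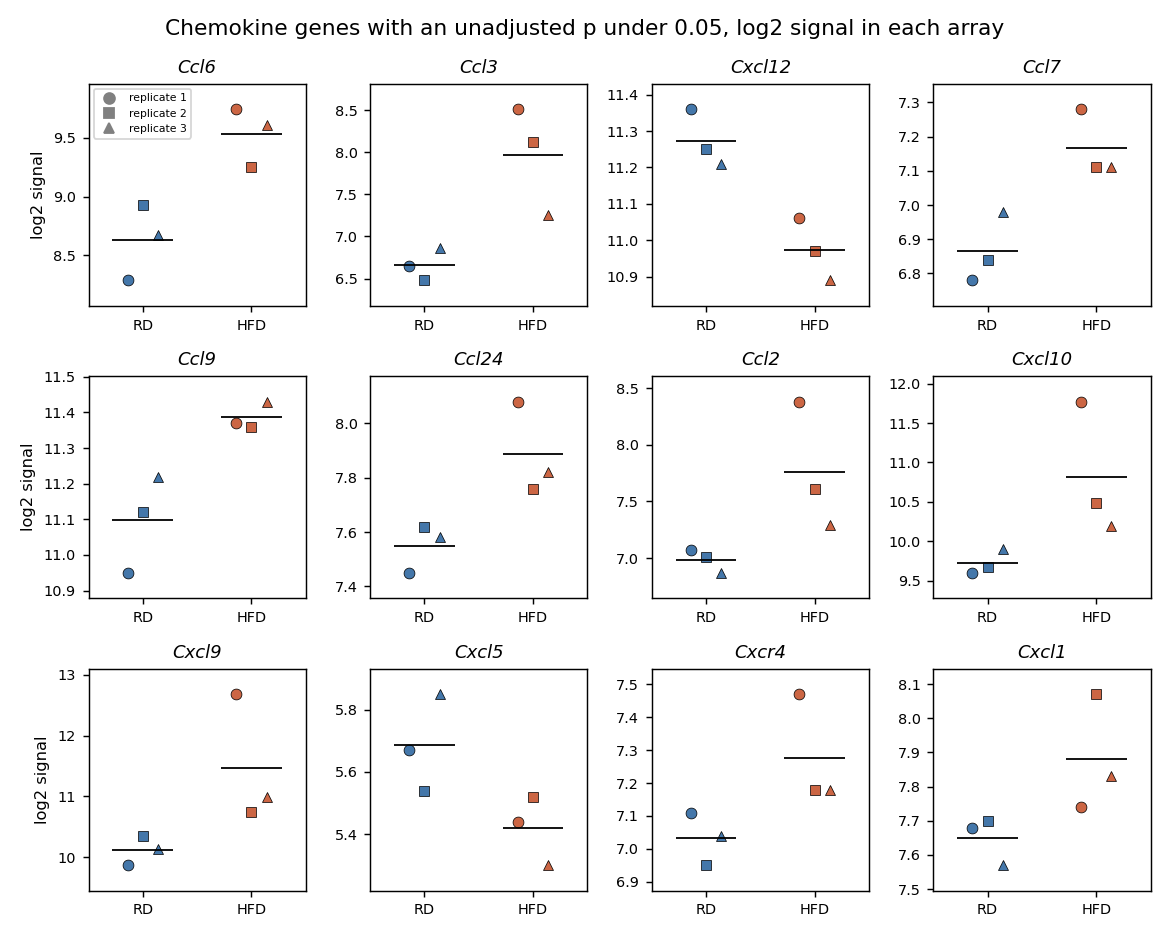
Log2 signal in each RD and HFD array for the 12 genes with an unadjusted p under 0.05; marker shapes are replicate numbers, horizontal lines are means of 3 arrays, and each panel has its own axis. HFD replicate 1 is the highest HFD array for Cxcl9, Cxcl10, Ccl2, Ccl3, Ccl6, Ccl7, Ccl24, Cxcr4 and Cxcl12, but not for Ccl9, Cxcl1 and Cxcl5. The HFD arrays lie close together for Ccl9.

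Among the CXCR3 ligands, Cxcl9 had the largest difference of the 52 genes, Cxcl10 was also higher in every HFD array, and Cxcl11 was not. Cxcl9 (probe set 10531407) had log2 signals of 9.87, 10.35 and 10.13 in RD and of 12.68, 10.74 and 10.99 in HFD. Every HFD array was above every RD array, by at least 0.39, and HFD replicate 1 stood well above the other HFD arrays. The difference was 1.35 ± 0.44 and did not pass (limma adjusted p = 0.127). Without HFD replicate 1 it was smaller, at 0.75, and passed (limma adjusted p = 0.0446).

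Cxcl10 (probe set 10531415), or IP-10, had 9.60, 9.67 and 9.90 in RD and 11.77, 10.48 and 10.19 in HFD. The pattern was that of Cxcl9, with no overlap and HFD replicate 1 on top. Its difference of 1.09 ± 0.35 (limma adjusted p = 0.123) was 0.61 without HFD replicate 1 (adjusted p = 0.0475). Cxcl11, which RefSeq lists as a transcribed pseudogene, had 7.23, 7.49 and 7.36 in RD and 7.51, 6.99 and 7.05 in HFD. Its diets overlapped, and the difference was -0.18 with a 95% confidence interval from -0.50 to 0.14.

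The promoter windows of Cxcl9 and Cxcl10 are shown because these genes had the largest difference and the largest among the others uncalled, a choice made after their values were seen. They lie at chr5:92328030-92328329 and chr5:92348840-92349139 on the minus strand of GRCm38.p6, with 1 protein-coding gene between the genes. Capitals mark matches to the motifs named above.
Cxcl9: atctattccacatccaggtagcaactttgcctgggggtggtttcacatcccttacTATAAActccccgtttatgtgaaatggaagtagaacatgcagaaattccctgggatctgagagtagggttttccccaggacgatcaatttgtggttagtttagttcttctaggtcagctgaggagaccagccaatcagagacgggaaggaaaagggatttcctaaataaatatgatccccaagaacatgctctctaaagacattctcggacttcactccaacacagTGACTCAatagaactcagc
Cxcl10: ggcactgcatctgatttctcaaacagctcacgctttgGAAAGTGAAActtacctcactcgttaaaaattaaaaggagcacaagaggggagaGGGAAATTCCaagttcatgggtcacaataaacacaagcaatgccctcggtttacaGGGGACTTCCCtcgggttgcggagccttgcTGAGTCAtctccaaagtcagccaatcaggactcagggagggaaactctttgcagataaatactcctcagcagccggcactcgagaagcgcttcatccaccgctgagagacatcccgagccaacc
Positions are counted from the start site as 0. The Cxcl10 window held an interferon-stimulated response element match from -213 to -204, NF-kB matches from -159 to -150, -104 to -95 and -103 to -94, of which the last pair overlap, and an AP-1 match from -74 to -68. The Cxcl9 window held a TATA match from -195 to -190 and an AP-1 match from 31 to 37. Of all 32851 promoter windows in the table, 8.5% held an NF-kB match, 3.4% an interferon-stimulated response element match, 8.3% a gamma-activated site match, 7.8% an AP-1 match and 8.3% a TATA match. Windows were found for 38 of the 52 genes, 40 windows in all, and 10, 3, 4, 7 and 10 of them held these matches in the same order. Of the 40 windows 24 were of ligands and 16 of receptors. NF-kB matches lay in 7 of the 24 ligand windows, those of Cxcl1, Cxcl2, Cxcl3 and Cxcl10 among them, and in 3 of the 16 receptor windows. Interferon-stimulated response element matches lay in 3 of the 24 ligand windows, those of Cxcl10, Cxcl14 and Ccl19, and in 0 of the 16 receptor windows. A match is a description of letters and does not show binding.

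The neutrophil attractants, CXC chemokines with an ELR motif that act through CXCR2, moved in no common direction. Of 5 genes 2 had a positive difference, and -0.02 was the median. Cxcl1, or KC, had 7.68, 7.70 and 7.57 in RD and 7.74, 8.07 and 7.83 in HFD (0.23 ± 0.09, limma adjusted p = 0.22). The diets did not overlap for Cxcl1, and its highest HFD array was replicate 2, without which the difference was 0.14. Cxcl5 lay on the other side, with 5.67, 5.54 and 5.85 in RD and 5.44, 5.52 and 5.30 in HFD (-0.26 ± 0.10, limma adjusted p = 0.18), a gap of only 0.01 between the diets. Cxcl2, or MIP-2, overlapped between the diets, with a 95% confidence interval from -0.04 to 0.77. Cxcl3 and Cxcl15 had differences of -0.06 and -0.02.

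Among the other CXC chemokines, Cxcl12 was the gene nearest to a call downward. Cxcl12, or SDF-1, is the CXCR4 ligand that stromal and endothelial cells make constitutively. Its log2 signals were 11.36, 11.25 and 11.21 in RD and 11.06, 10.97 and 10.89 in HFD. Every HFD array was below every RD array, by at least 0.15, and the spread within each diet was small (SD 0.08 and 0.09). The difference was -0.30 ± 0.07 (limma adjusted p = 0.0586). It passed after quantile normalization (limma adjusted p = 0.0446), among the brighter genes (0.027), with an intensity trend and robust prior (0.0231) and with array weights (0.0459). It missed when any array was left out (limma adjusted p up to 0.188).

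The remaining CXC genes did not separate the diets. Cxcl13, the B cell attractant that binds CXCR5, had 8.31, 9.07 and 8.99 in RD and 8.89, 9.19 and 9.15 in HFD, where RD replicate 1 was the low array. Cxcl16, a membrane-bound chemokine that binds CXCR6, had 8.51, 8.79 and 8.48 in RD and 9.23, 8.82 and 8.59 in HFD. The intervals of their differences included 0, from -0.15 to 0.72 for Cxcl13 and from -0.08 to 0.65 for Cxcl16. Cxcl14 and Cxcl17 had differences of 0.11 and -0.04.

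None of the 6 homeostatic or mixed CC chemokines passed, and their diets overlapped in each. The median difference was 0.06, with a range from -0.15 for Ccl20, the CCR6 ligand, to 0.23 for Ccl19, the CCR7 ligand of lymphoid tissue. Ccl19 had 5 probe sets with differences of 0.20 to 0.23, and 2 of them gave the same values to 2 decimals, so they are not independent measurements. The Ccl25 probe sets differed from each other, at -0.03 for the brighter and -0.25 for the other. A further 7 probe sets carried several symbols of the Ccl21 and Ccl27 gene copies and were left out of the 52 genes. Those of Ccl21, which has several near-identical copies in mice, gave 1 profile with a difference of 0.03 ± 0.19. Those of Ccl27 gave 2 profiles, each with a difference of 0.13, ± 0.08 and ± 0.07. The single CX3C chemokine Cx3cl1, or fractalkine, and the XC chemokine Xcl1 had differences of -0.04 and -0.05, with 95% confidence intervals from -0.20 to 0.12 and from -0.21 to 0.12.

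Among the 18 receptors, Cxcr4, the receptor of Cxcl12, was the one with an unadjusted p under 0.05. It had log2 signals of 7.11, 6.95 and 7.04 in RD and of 7.47, 7.18 and 7.18 in HFD. The diets did not overlap and HFD replicate 1 was highest (0.24 ± 0.10, limma adjusted p = 0.209). Without that array the difference was 0.14. Ccr2, the Ccl2 receptor of inflammatory monocytes, had 5.14, 5.09 and 5.08 in RD and 6.13, 5.39 and 5.14 in HFD. HFD replicate 1 lay far above the rest and HFD replicate 3 overlapped RD. The difference of 0.45 ± 0.21 (limma adjusted p = 0.303) was 0.16 without HFD replicate 1.

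Ccr7, the Ccl19 receptor of dendritic cells and T cells, did not overlap between the diets, with a gap of 0.01 (0.18 ± 0.09, limma adjusted p = 0.289). Cxcr3, the receptor of Cxcl9 and Cxcl10, had 7.09, 6.87 and 6.99 in RD and 7.33, 7.0 and 7.01 in HFD. Here HFD replicate 1 was again the highest array, the diets overlapped, and the interval of the difference ran from -0.11 to 0.37. Ccr1, the receptor of Ccl3, Ccl6 and Ccl9, had 4.34, 4.29 and 4.37 in RD and 4.33, 4.17 and 4.44 in HFD, with an interval from -0.21 to 0.16. Cxcr6, the receptor of Cxcl16, had its highest value in HFD replicate 1 (6.48) and its lowest in HFD replicate 2 (5.64), around RD values of 5.85 to 6.01. HFD values lay entirely below RD for Ccr8 (-0.13) and for Cxcr1 (-0.11), each by a gap of 0.01. The others, Ccr3, Ccr4, Ccr6, Ccr9, Ccr10, Ccr1l1, Cxcr2, Cxcr5, Cx3cr1 and Xcr1, overlapped between the diets, with differences from -0.21 for Ccr3 to 0.21 for Cxcr2. Of the 18 receptors 17 had a mean below the median of all genes.

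The HFD arrays were not alike in the chemokine system. In HFD replicate 1, 27 of the 52 genes (51.9%) lay above the highest RD array, against 31.2% of all genes. The figures were 22 genes (42.3%, against 28.6%) in HFD replicate 2 and 19 (36.5%, against 32.6%) in HFD replicate 3. HFD replicate 1 was the highest HFD array for 28 of the 52 genes (53.8%), against 33.6% of all genes. By role, the mean difference from the RD mean in HFD replicates 1, 2 and 3 was 1.59, 0.34 and 0.34 for the 3 CXCR3 ligands and 0.53, 0.28 and 0.24 for the 13 inflammatory CC chemokines. For the 10 CC receptors it was 0.02, 0.00 and -0.03, and for the 6 CXC receptors 0.30, -0.01 and 0.02. The 5 CXC chemokines with an ELR motif had 0.03, 0.06 and 0.06. These are descriptions of single arrays and carry no test.

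**Figure D3:**
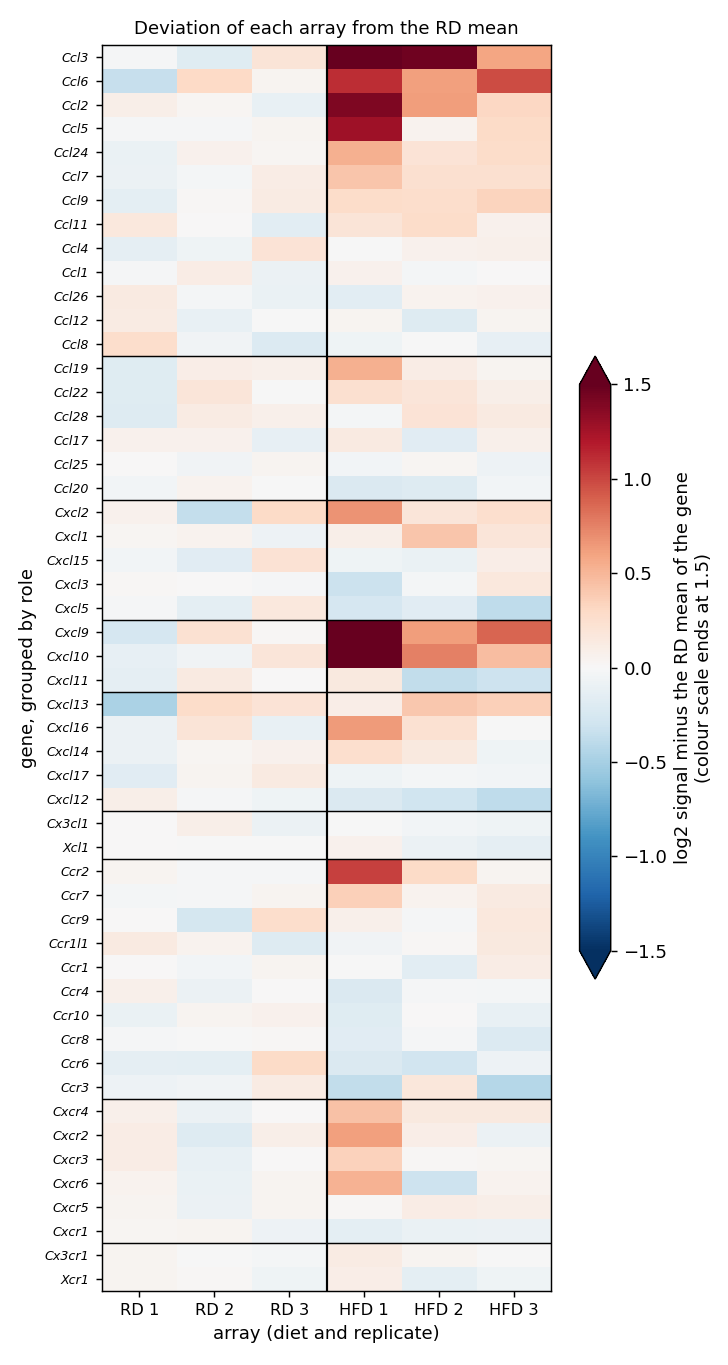
Log2 signal of each array minus the RD mean of the gene, for the 52 genes in rows grouped by role and the 6 arrays in columns; the colour scale ends at 1.5 in each direction. HFD replicate 1 is high in Ccl2, Ccl5, Cxcl9, Cxcl10 and Ccr2, whereas Ccl6 is high in all 3 HFD arrays.

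Some lists of cell type markers held calls. The marker counts here and below stand beside 3.11% of all genes called higher and 2.24% called lower. In whole liver RNA, more cells of a type and more RNA per cell cannot be told apart. Of 14 Kupffer cell markers 6 rose and none fell, with a median of 0.36. Their differences ran from -0.38 to 0.89, with 12 positive and 2 negative, and 1 negative one had an unadjusted p under 0.05 in limma. The mean level of the list was 9.62 to 9.72 in RD arrays and 9.92 to 10.24 in HFD arrays. Slc40a1, the iron exporter ferroportin, rose by 0.61 ± 0.07, Cd5l by 0.85 ± 0.12, the phosphatidylserine receptor Timd4 by 0.67 ± 0.11 and the macrophage adhesion receptor gene Adgre1 by 0.82 ± 0.17. Leaving out RD replicate 1, 2 or 3 lowered the count of risers to 2, 2 and 3, and leaving out HFD replicate 3 lowered it to 3. Of 7 monocyte markers 2 rose, Plac8 by 1.16 ± 0.16 and the endotoxin co-receptor Cd14 by 0.52 ± 0.07. Differences of the 7 ran from -0.11 to 1.16, with a median of 0.21, 6 positive and 1 negative. Of the 7 markers 6 had a mean below the median of all genes. The monocyte list mean was 6.07 to 6.16 in RD and 6.35 to 6.5 in HFD. The means of the Kupffer cell and monocyte lists were higher in all 3 HFD arrays.

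The T cell and NK cell marker lists were highest in HFD replicate 1, as were the other marker lists. For Kupffer cell markers the mean difference from the RD mean was 0.57, 0.25 and 0.34 in HFD replicates 1, 2 and 3. For dendritic cell markers it was 0.28, 0.03 and 0.12. The mean level of 8 NK cell markers was 5.58 to 5.79 in RD and 6.21, 5.62 and 5.79 in HFD replicates 1, 2 and 3. That of 10 T cell markers was 6.60 to 6.68 in RD and 6.98, 6.58 and 6.70 in HFD. No NK cell, T cell, B cell, neutrophil or dendritic cell marker passed in limma (0, 1, 0, 1 and 1 at an unadjusted p under 0.05). The neutrophil list had a mean of 5.79 to 5.81 in RD and 5.85 to 5.94 in HFD, and B cell markers one of 6.49 to 6.69 and 6.48 to 6.67. The 8 dendritic cell markers had a mean of 6.98 to 7.01 in RD and 7.02 to 7.27 in HFD. All 5 cholangiocyte markers measured rose, with a median of 0.48 and a mean of 7.43 to 7.5 in RD and 7.91 to 7.99 in HFD, among them Krt19 (0.70 ± 0.14) and Epcam (0.54 ± 0.10), but 0 passed without RD replicate 1 and 1 without each other array. None of 10 endothelial, 8 stellate cell or 8 hepatocyte markers passed (2, 0 and 0 at an unadjusted p under 0.05), with medians of 0.08, 0.03 and -0.01. Endothelial means were 10.12 to 10.17 in RD and 10.19 to 10.34 in HFD, and stellate means 9.38 to 9.53 and 9.46 to 9.54. The part of these cells in the chemokine values was not tested.

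**Figure D4:**
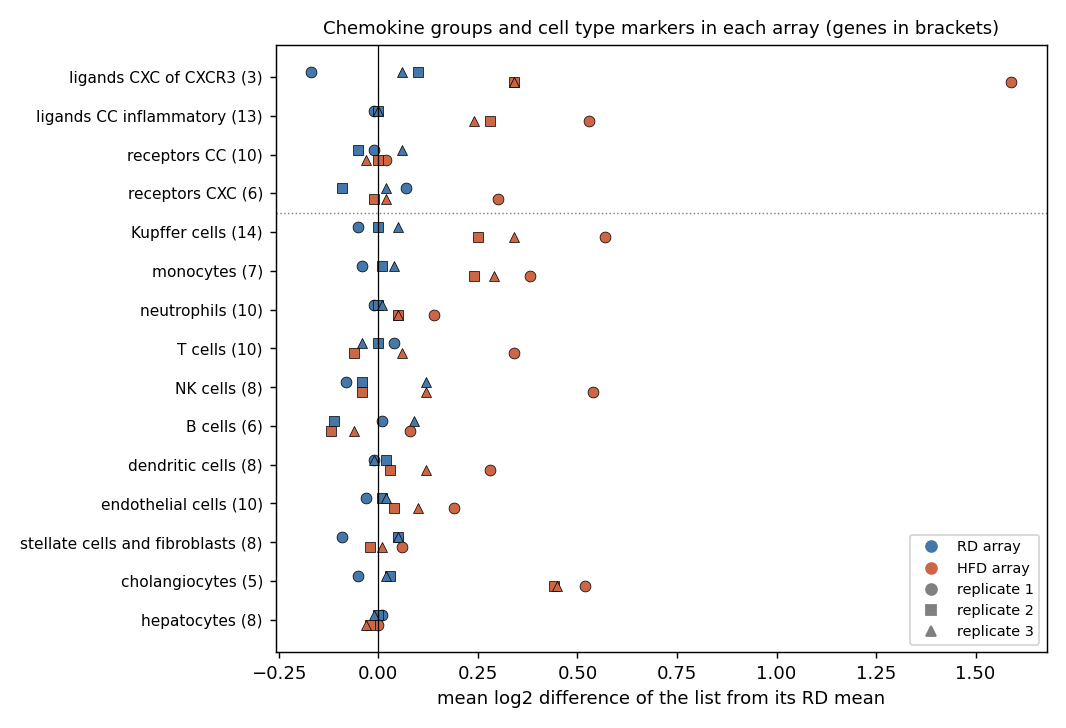
Mean log2 difference of each gene group from its RD mean in each array, for 4 chemokine groups above the dotted line and 11 cell type marker lists below it; marker shapes are replicate numbers. Kupffer cell, monocyte and cholangiocyte lists are above RD in all 3 HFD arrays, and so, by less, are the neutrophil, dendritic cell and endothelial lists. The CXCR3 ligands and inflammatory CC chemokines are also above RD in all 3 HFD arrays. Of the HFD arrays, replicate 1 lies highest for the CXCR3 ligands (1.59) and for the NK cell (0.54) and T cell (0.34) lists. The same holds for other lists, such as the Kupffer cell (0.57) and monocyte (0.38) lists.

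Upstream of chemokine genes, 3 of 19 NF-kB and cytokine genes rose, against 3.11% of all genes, with a median of 0.17. Il1a rose by 0.51 ± 0.09, the Toll-like receptor adaptor Myd88 by 0.49 ± 0.10 and the NF-kB inhibitor Nfkbia, itself an NF-kB target, by 0.36 ± 0.08. The NF-kB subunit gene Rel had 0.29 ± 0.07 (limma adjusted p = 0.0618). Leaving out RD replicates 1, 2 and 3 gave counts of 1, 0 and 1, and leaving out HFD replicate 1 or 2 gave 1. Of 11 genes of interferon gamma signalling none passed in limma (4 at an unadjusted p under 0.05), with a median of 0.16. Among them the interferon gamma gene itself, Ifng, had 6.23, 5.97 and 6.4 in RD and 6.39, 6.07 and 6.17 in HFD. Its difference was 0.01 ± 0.12, and its mean lay below the median of all genes. Irf1, a target of interferon gamma, had 8.86, 9.21 and 9.42 in RD and 10.08, 9.49 and 9.48 in HFD (0.52 ± 0.19, limma adjusted p = 0.17), so HFD replicate 1 was again highest. Irf8 had 0.40 ± 0.14, Irf7 0.37 ± 0.13 and Stat2 -0.33 ± 0.08 (limma adjusted p = 0.0594). Stat2 passed as lower without HFD replicate 1 (limma adjusted p = 0.0428), after quantile normalization (0.0326), among the brighter genes (0.0291) and with an intensity trend and robust prior (0.0311).

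Downstream of the receptors, 3 of 25 genes of signalling and chemotaxis rose, against 3.11% of all genes. Of the 25 differences 23 were positive, against 49.2% of all genes, with a median of 0.16. The risers were Rgs2, which shortens G protein signals (0.58 ± 0.11), the Rac activator partner Elmo1 (0.45 ± 0.10) and the myeloid kinase Fgr (0.58 ± 0.13). The haematopoietic exchange factor Vav1 had 0.54 ± 0.13 (limma adjusted p = 0.0566). Leaving out any RD array gave 0 risers, and leaving out HFD replicate 1 gave 1. Of 13 leukocyte adhesion genes 3 rose, against 3.11% of all genes, and 13 had a positive difference, against 49.2% of all genes. Their median was 0.36, or 0.23 without HFD replicate 1. The hyaluronan receptor Cd44 rose by 0.94 ± 0.15, the endothelial adhesion molecule Icam1 by 0.66 ± 0.14 and the integrin subunit Itgb2 by 0.84 ± 0.18, and Itgal had 0.54 ± 0.14 (limma adjusted p = 0.0683). Omitting RD replicates 1, 2 and 3 gave counts of 0, 0 and 1.

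Proteases that cleave chemokines and chemokine relatives outside the family gave 1 call each, against 3.11% of all genes called higher. Of 12 proteases that can cleave chemokines, the macrophage elastase Mmp12 rose by 1.17 ± 0.17 (limma adjusted p = 0.0083). Its call held when any 1 array was left out and was lost with every row of the table tested (limma adjusted p = 0.054). Adam17, which sheds Cx3cl1, had 0.19 ± 0.07 (adjusted p = 0.179). Mmp8 and Mmp9 had 0.25 ± 0.11 and 0.23 ± 0.11. Of 9 atypical receptors and chemokine relatives outside the 52 genes, the chemerin receptor Cmklr1 rose by 0.58 ± 0.12 (limma adjusted p = 0.0278), and among fits with an array omitted it passed in the one lacking HFD replicate 2. The scavenger receptor Ackr2, which clears inflammatory CC chemokines, had 7.91, 7.91 and 8.03 in RD and 7.71, 7.59 and 7.71 in HFD (-0.29 ± 0.07, limma adjusted p = 0.057). Ccrl2 had 0.26 ± 0.11, and the platelet chemokine Pf4 had -0.07 ± 0.08.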

How the data were processed

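The authors deposited log2 signals of 35512 probe sets on each array. Base 2 was inferred from their range of 2.28 to 14.86. No source used here states how they were summarised or normalized. Labelling used a GeneChip kit, per the labels' protocols. Probe sets were named through the platform annotation, which can be old, and 21789 had 1 symbol. All 52 genes matched RefSeq (GRCm38.p6), with 0 symbols changed, and promoter windows came from RefSeq.

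Values were used as deposited, with no filter on dim genes. Diet was fitted alone in limma 3.58.1 (R 4.3.3, lmFit and eBayes, two-sided). Intervals are at 95% for single genes. In simulated data with 200 of 19938 genes changed between HFD and RD, 62.7% of changes of 0.5, 89.6% of 1 and 98.5% of 2 (log2) were recovered, with 5 false calls. The simulated noise was independent between genes, and each gene had the same spread in both diets. The rates need not hold for a gene such as Cxcl9, with an SD of 0.24 in RD and 1.05 in HFD.

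The genes, lists, tests and naming rule were chosen with earlier results of these data known. Every gene of the family may be named, and of other lists up to 4 with the smallest p, with Ifng added afterwards. The series' design text states biological replicates. No batch term was fitted.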

Additional observations from a re-analysis of the deposited data

How the results depend on the processing

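Precision is limited by 3 arrays a diet, and dimness by the lack of detection calls. Of 2 genes of the family called higher, 0 to 2 passed when 1 array was left out, and 0 passed as lower in each case; the 2 without HFD replicate 1 were Cxcl9 and Cxcl10 in place of Ccl3 and Ccl6. With every row of the table tested, 0 passed as higher (Ccl6 adjusted p = 0.1, Ccl3 adjusted p = 0.119), as did 0 genes of the pathway lists and 0 cholangiocyte markers, while 2 Kupffer cell and 2 monocyte markers passed; all genes called numbered 168 higher and 173 lower. With the replicate number as a block, a pairing that the data do not bear out (correlation of deviations -0.107, 0 and 0.117 for numbers 1, 2 and 3), 0 genes of the family passed (Ccl6 adjusted p = 0.0681, Ccl3 adjusted p = 0.0587), and 318 genes overall were higher and 245 lower; the cause was not tested. Quantile normalization, array weights, the brighter genes only, and an intensity trend with a robust prior each gave 1 gene of the family lower, Cxcl12, and the trend lost Ccl3 (adjusted p = 0.077). Among the 13 genes of the family kept as brighter, 8 (61.5%) did not overlap between diets, against 37.2% of all brighter genes. A further threshold of 1.5-fold left 208 genes higher and 151 lower. Without 1 array, all genes called higher numbered 197 to 371 and lower 178 to 273, and non-overlapping genes of the family 19 to 25 (36.5% to 48.1%), against 32.7% to 39.5% of all genes. Median centring and the mean of all probe sets changed no call in the family.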
